A study of Mus musculus with 8 samples.

Results

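The genes described here are 6 genes of 2 migration pathways: Met and its ligand Hgf, Cxcr4 and its ligand Cxcl12, the second Cxcl12 receptor Ackr3, and Gab1, an adaptor of Met. They were chosen by name, with earlier results of these data known. Every merged H3K56ac peak that overlapped one of them or the 20 kb on either side (its window) was taken. This gave 73 of the 105600 peaks in the list. H3K56ac is histone H3 acetylated at lysine 56, a mark that the deacetylase Sirt6 removes. It was mapped by ChIP-seq, the sequencing of DNA bound to an immunoprecipitated protein, in MuSCs, the stem cells that lie on muscle fibres and repair them. They came fresh from mice on a C57BL/6 background, either Control or Sirt6mKO. The paper calls the Control cells wild type, names littermates as its controls, and in another figure gives the control as floxed for Sirt6 without Cre. Sirt6mKO mice carried 2 floxed Sirt6 alleles and a Cre recombinase driven by the Pax7 promoter. Sirt6 was thus lost from the skeletal muscle lineage and not from MuSCs only. A ROSA26-YFP strain was also part of the Sirt6mKO cross. Each of the 4 groups, H3K56ac and input DNA in either genotype, held 2 libraries, 8 in all. Per the legend that covers these data, male mice of 12 to 16 weeks were used. The limb and trunk muscles were sorted for MuSCs after removal of Sca1, CD45 and CD31 positive cells, by Integrin-a7 and CD34 or by a fluorescent reporter. Which of these gates gave the ChIP-seq cells is not given in the sources used here.

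The list analysed here is 1 merged set of intervals without values per library. Levels of H3K56ac, their spread between replicates, the depth of the libraries and the difference between Control and Sirt6mKO MuSCs were therefore not analysed here, and all values below describe where peaks lie and how far they extend. No value below has a replicate error, and peaks and genes are not replicates, so no test was made. The paper reports more H3K56ac peaks in Sirt6mKO than in control MuSCs, and broader ones once Sirt6 is lost. Which part of a width or covered share below comes from either genotype cannot be told from the merged list. The 105600 peaks covered 6.95% of the assembled sequence outside gaps.

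Hgf, a secreted growth factor stored in the muscle matrix, binds the receptor tyrosine kinase Met, which recruits Gab1 and so engages SHP2, PI3K and other effectors of cell movement. Cxcl12, a chemokine of stromal and endothelial cells, binds the G protein coupled receptor Cxcr4, which directs migration, and the atypical receptor Ackr3, which takes up the chemokine and signals through arrestins. Both receptor systems are known for guiding muscle progenitors into the limb in the embryo, and Hgf is known for alerting and activating adult MuSCs after injury. Quiescent MuSCs are known to carry Met and Cxcr4, whereas the ligands are known mainly as products of the cells around them.

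The promoter sequences of the 6 genes are shown because each of them lay entirely inside a peak, while the peaks around them differed widely in extent. They are the RefSeq windows from 250 bases before to 50 bases after a gene's start in GRCm38.p6, read 5′ to 3′ on the gene's strand, with each CpG dinucleotide in capitals.
Met promoter, chr6:17463707-17464006, plus strand: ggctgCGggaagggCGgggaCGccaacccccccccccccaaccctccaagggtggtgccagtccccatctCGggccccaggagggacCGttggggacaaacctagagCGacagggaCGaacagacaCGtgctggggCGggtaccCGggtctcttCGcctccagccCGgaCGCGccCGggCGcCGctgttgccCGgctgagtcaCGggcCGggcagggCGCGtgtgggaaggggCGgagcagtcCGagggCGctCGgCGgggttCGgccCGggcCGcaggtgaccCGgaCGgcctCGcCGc
Cxcr4 promoter, chr1:128592250-128592549, minus strand: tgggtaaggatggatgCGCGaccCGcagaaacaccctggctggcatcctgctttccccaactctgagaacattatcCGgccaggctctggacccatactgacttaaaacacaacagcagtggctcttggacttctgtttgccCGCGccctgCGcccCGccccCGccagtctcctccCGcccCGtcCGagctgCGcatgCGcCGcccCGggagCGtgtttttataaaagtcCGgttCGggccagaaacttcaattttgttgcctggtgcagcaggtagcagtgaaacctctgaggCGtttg
Ackr3 promoter, chr1:90203730-90204029, plus strand: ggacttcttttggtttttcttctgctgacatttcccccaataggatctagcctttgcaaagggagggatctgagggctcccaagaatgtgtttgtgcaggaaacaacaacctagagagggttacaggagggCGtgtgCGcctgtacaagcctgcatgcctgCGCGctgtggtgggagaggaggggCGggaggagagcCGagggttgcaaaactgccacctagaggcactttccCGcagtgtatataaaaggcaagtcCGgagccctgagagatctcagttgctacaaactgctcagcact
Hgf promoter, chr5:16553245-16553544, plus strand: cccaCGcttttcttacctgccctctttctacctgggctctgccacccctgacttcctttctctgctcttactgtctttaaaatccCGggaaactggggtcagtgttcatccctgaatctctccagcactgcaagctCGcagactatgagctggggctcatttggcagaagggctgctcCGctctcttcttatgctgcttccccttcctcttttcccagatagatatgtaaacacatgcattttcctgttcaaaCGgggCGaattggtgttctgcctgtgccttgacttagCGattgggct
Cxcl12 promoter, chr6:117168285-117168584, plus strand: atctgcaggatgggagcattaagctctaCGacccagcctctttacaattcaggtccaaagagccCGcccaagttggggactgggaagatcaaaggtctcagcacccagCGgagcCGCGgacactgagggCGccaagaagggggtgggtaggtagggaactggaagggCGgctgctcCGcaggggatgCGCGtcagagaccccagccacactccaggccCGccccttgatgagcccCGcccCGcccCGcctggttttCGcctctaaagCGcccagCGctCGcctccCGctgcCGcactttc
Gab1 promoter, chr8:80880430-80880729, minus strand: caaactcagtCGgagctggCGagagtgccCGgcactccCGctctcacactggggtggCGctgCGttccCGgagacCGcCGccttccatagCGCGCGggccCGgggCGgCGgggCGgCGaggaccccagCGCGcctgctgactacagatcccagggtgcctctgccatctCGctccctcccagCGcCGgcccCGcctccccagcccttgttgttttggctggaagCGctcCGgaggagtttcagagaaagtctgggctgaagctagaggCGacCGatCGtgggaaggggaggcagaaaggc

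CpG dinucleotides were most frequent in the promoter of Met, with 34, followed by Gab1 with 28. Cxcr4 and Cxcl12 had 20 each, Ackr3 had 8 and Hgf had 7. The median over the 32851 RefSeq promoters was 7, with quartiles of 3 and 20. Ackr3, with a CpG count near the median, thus had the widest peak over its start among the 6 genes, and Cxcl12, with as many CpGs as Cxcr4, had one of the narrowest. GC content was 75.7% in Met, 69.0% in Gab1, 64.7% in Cxcl12, 59.3% in Cxcr4, 54.0% in Ackr3 and 51.3% in Hgf, against a median of 52.7% over all promoters.

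The promoters were searched on both strands for 9 short motifs, and matches that overlap each other were counted as 1 place. The GC box GGGCGG occurred at 4 places in Cxcl12, 3 times in Met and in Cxcr4, 2 times in Gab1 and 1 time in Ackr3. It was not found in the Hgf window, and 35.7% of all promoters held it. The TATA motif TATAAA occurred 1 time each in Cxcr4 and Ackr3, with 13.6% of all promoters holding it. CCAAT was found 2 times in Hgf and 1 time in Ackr3, against 37.4% of all promoters. The Met promoter held 1 AP-1 motif TGANTCA and 1 E-box CACGTG, and the hypoxia response core ACGTG occurred at the place of that E-box alone, where 7.81%, 7.15% and 19.6% of all promoters held these motifs. TGGGAA, the RBPJ motif, was found 1 time each in Met, Hgf, Cxcl12 and Gab1, and 25.6% of all promoters held it. The other E-box CAGCTG and the ETS motif TTCCGG were in none of the 6 windows, and 16.3% and 14.9% of all promoters held them. These matches describe letters in the windows and show no binding.

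**Figure D1:**
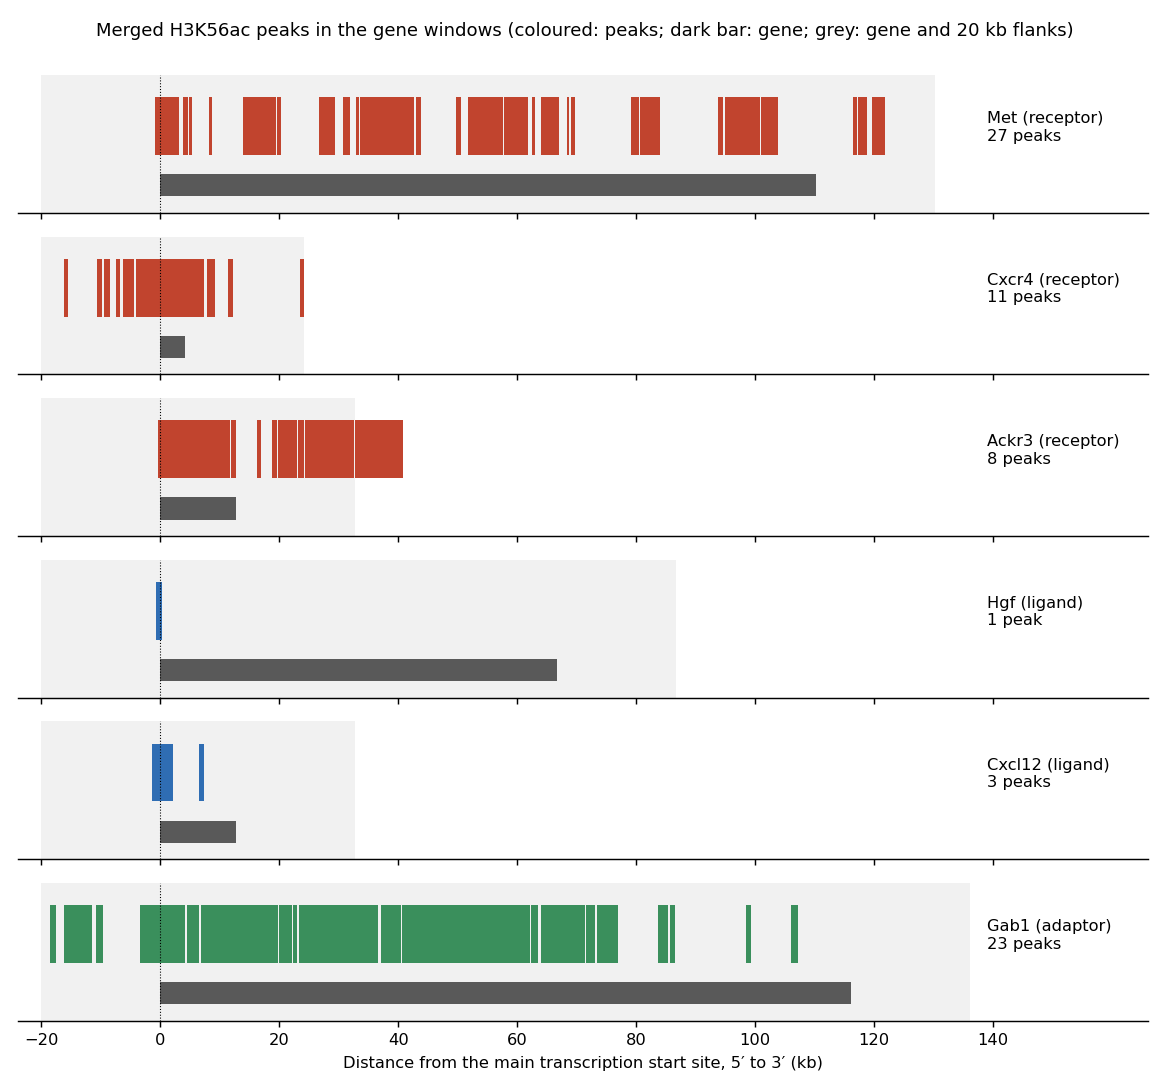
Merged H3K56ac peaks (coloured blocks) along each gene (dark bar) and its 20 kb flanks (grey), by distance in kb from the main transcription start site, read 5′ to 3′. Peaks lie along Met, Cxcr4, Ackr3 and Gab1 (27, 11, 8 and 23 peaks), whereas Hgf has 1 peak and Cxcl12 has 3.

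The receptor genes and Gab1 were covered over large parts of their windows, and the ligand genes over small parts. H3K56ac peaks covered 40.4% of the window of Met, 43.6% of that of Cxcr4, 50.9% of that of Ackr3 and 56.9% of that of Gab1, against 0.912% for Hgf and 8.00% for Cxcl12. The mean covered share was 45.0% for the 3 receptors and 4.45% for the 2 ligands, a difference of 40.5 percentage points. Each receptor value lay above both ligand values, which with 3 genes against 2 is a description only. The 3 receptor windows held 46 peaks over 247 kb, or 18.6 peaks per 100 kb, and the 2 ligand windows held 4 peaks over 159 kb, or 2.51 per 100 kb. Over the 21938 protein-coding genes of GENCODE, the covered share had a median of 9.53% and quartiles of 1.08% and 20.6%, so that both ligands lay below the median and the 4 other genes above the upper quartile.

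**Figure D2:**
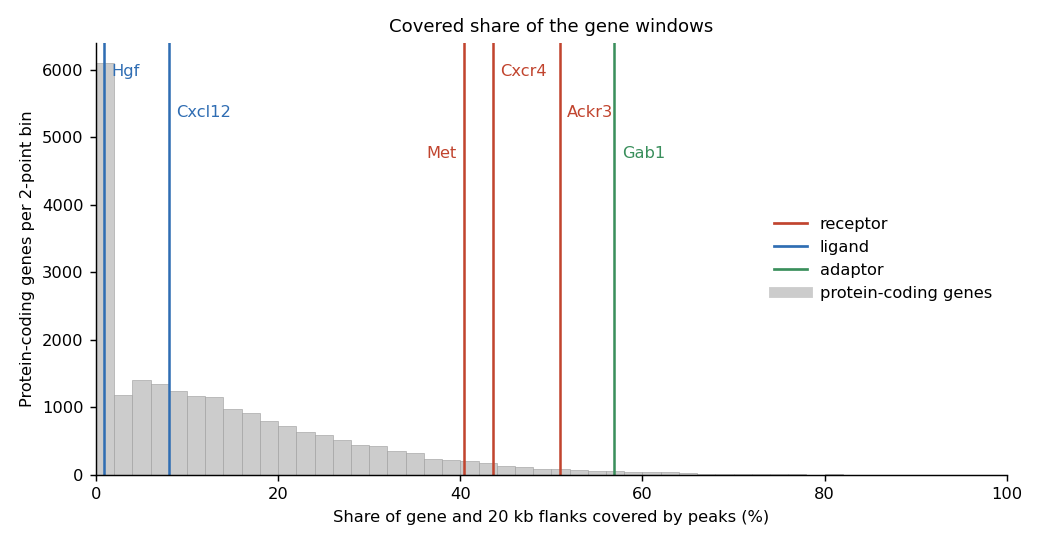
Number of protein-coding genes by the share of the gene and its 20 kb flanks that lies in peaks (x axis, %; bins of 2 percentage points), with a vertical line for each of the 6 genes. Hgf (0.912%) and Cxcl12 (8.00%) lie left of the median of 9.53%, and Met, Cxcr4, Ackr3 and Gab1 lie between 40.4% and 56.9%.

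The order was similar among genes of like length. The covered share of Met was higher than that of 94.5% of all coding genes, and higher than that of 94.3% of the 1122 coding genes within 20% of its length. Cxcr4 was above 95.9% of all coding genes and 94.5% of those of like length. Ackr3 was above 97.8% and 98.0%, and Gab1 above 98.7% and 97.5%. Cxcl12 was above 45.7% of all coding genes and 35.9% of those of like length, and Hgf above 24.5% and 10.7%. Hgf thus stood lower among genes of its own length, which mostly carried more peak sequence.

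All 6 genes had a promoter peak, defined as a peak within 3 kb of an annotated transcription start site (TSS), as did 67.8% of protein-coding genes. In each of the 6 genes a peak lay over the main TSS itself. What differed was the width. The widest promoter peak was 973 bp in Hgf and 2673 bp in Cxcl12, and it was 4033 bp in Met, 6296 bp in Cxcr4, 11159 bp in Gab1 and 12023 bp in Ackr3. In Gab1 this peak lay at an internal start site, and the peak over the main TSS was 6215 bp wide. The median over the 14872 coding genes with such a peak was 3430 bp, so that both ligands were below it and the 4 other genes above. Hgf was above 6.87% of those genes and Ackr3 above 97.9%. The 73 peaks had a median width of 1399 bp against 974 bp for all peaks, and 14 of them (19.2%) were at least 5 kb wide, against 6.00% of all peaks.

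A TSS of the gene was within 3 kb of 16 of the 73 peaks, and the other 57 were farther away. Introns of the main transcript alone were touched by 38 peaks, at least 1 exon by 11, and 24 lay wholly outside the gene. The same counts were not made over all peaks or for other genes, so they describe the layout of these peaks only. In what follows, positions are given from the main TSS along the direction of transcription, with negative values before it. Genes are located on mm10 with GENCODE annotation, counting from 1.

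**Figure D3:**
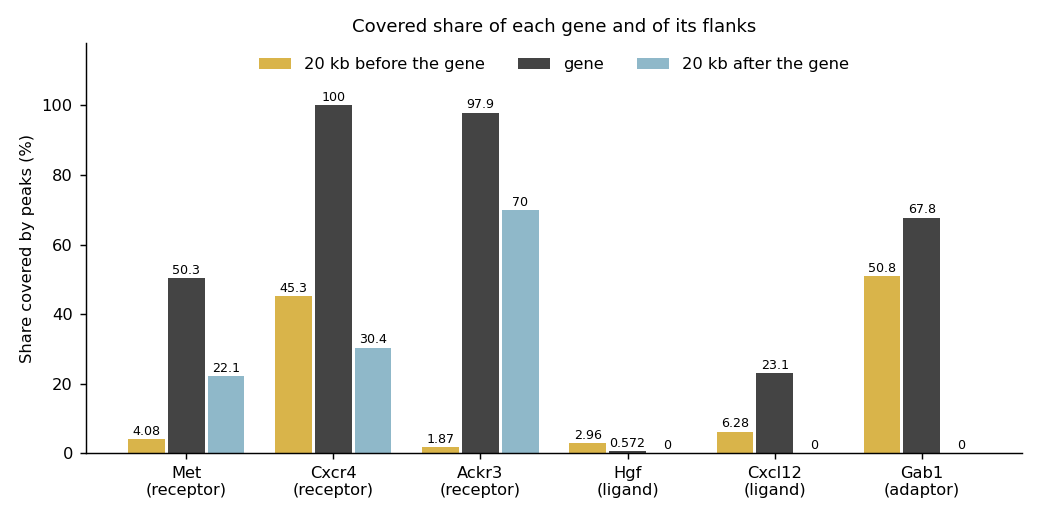
Share of sequence in peaks (%) for the 20 kb before each gene, the gene and the 20 kb after it. Cxcr4 and Ackr3 are covered at 100% and 97.9% of the gene, Ackr3 and Met have most of their flanking coverage after the gene, Gab1 has it before the gene, and both ligands have none after the gene.

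Met (ENSMUSG00000009376.15) spans chr6:17463800-17573980 on the plus strand, 110 kb with 22 exons in the main transcript Met-203. Its first peak, of 4033 bp, ran from -0.815 to 3.22 kb over exon 1 and the start of intron 1, and held 4 annotated start sites. No peak lay in the rest of the 20 kb before the gene, and the next one upstream was 32.7 kb away. Inside the gene 24 peaks covered 50.3% of the sequence, in clusters set apart by bare stretches.

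Introns 1, 3 and 4 held most of the covered bases of Met. Intron 1 (23.5 kb) had 46.1% of its bases in 6 peaks, the widest of them 5552 bp from 13.9 to 19.5 kb. Intron 3 (20.9 kb) had 59.9% in 6 peaks, one of 5198 bp, and intron 4 (12.8 kb) had 84.3% in 4 peaks, one of 5896 bp. The widest peak of the gene, 5977 bp and beginning at 94.9 kb, lay near the 3′ end over exons 18, 19 and 20 and the introns between them. Downstream of the gene there were 3 peaks between 116 and 122 kb, and no further peak followed for 41.4 kb.

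Met has further annotated start sites inside the gene, and peaks lay over some of them. The start of the coding transcript Met-201, 27441 bp into the gene, was inside a peak of 2655 bp that also held exon 3. The start of Met-206, 83173 bp into the gene, was inside a peak of 3327 bp. The start of Met-207, at 71201 bp, was not in a peak, although peaks of 342 and 763 bp lay within 3 kb of it. Whether these internal starts are used in MuSCs was not measured.

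Cxcr4 (ENSMUSG00000045382.6) is a short gene of 2 exons, chr1:128588199-128592293 on the minus strand, 4095 bp. It lay wholly inside 1 peak of 6296 bp, which ran from -1.25 to 5.05 kb and so past both ends of the gene. A peak of 2892 bp adjoined it upstream, from -4.14 to -1.25 kb, and one of 2325 bp adjoined it downstream, from 5.07 to 7.39 kb. Joining peaks less than 1 kb apart gave a single region of 16.6 kb over a gene of 4.09 kb. The flanks were covered on both sides, 45.3% of the 20 kb before the gene and 30.4% of the 20 kb after it, and the peaks farther out were narrow, between 586 and 1804 bp. No other annotated gene overlapped the window.

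Ackr3 (ENSMUSG00000044337.5) lies on the same chromosome at chr1:90203980-90216751 on the plus strand, 12.8 kb with 2 exons. Its start lay in a peak of 12023 bp from -0.374 to 11.6 kb, the widest promoter peak of the 6 genes, which took in exon 1, all of intron 1 and most of exon 2. With a second peak of 856 bp, 97.9% of the gene was covered. The peaks were one-sided. The next peak upstream was 36.5 kb away, and 1.87% of the 20 kb before the gene was covered, whereas 70.0% of the 20 kb after it was covered, with peaks of 8257 bp from 24.3 to 32.5 kb and of 8045 bp from 32.7 to 40.7 kb, the latter running past the window. The first of these held the start of Gm38277, a predicted transcript that awaits experimental evidence in the annotation.

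Gab1 (ENSMUSG00000031714.9) spans chr8:80764438-80880519 on the minus strand, 116 kb with 10 exons in the main transcript Gab1-201. Its window had the largest covered share of the 6, 56.9%. Of the gene itself 67.8% was covered, less than of the much shorter Cxcr4 and Ackr3. Most of this lay in intron 1, which is 79.1 kb long and had 92.2% of its bases in 15 peaks, the widest of 13358 bp from 23.3 to 36.6 kb. Others in this intron were 11449, 11159 and 10310 bp wide. Joining peaks less than 1 kb apart made 1 region of 80.4 kb that contained the main TSS. The 11159 bp peak held the start of Gab1-203, a processed transcript that begins 49612 bp into the gene.

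The sequence of Gab1 after intron 1 carried fewer peaks. Intron 2 had 31.9% of its bases in peaks, introns 6 and 8 had 8.76% and 24.6%, and no other intron or exon after exon 1 was touched. No peak lay in the 20 kb after the gene, whereas 50.8% of the 20 kb before it was covered. Gm31105, an antisense transcript, starts inside the 6215 bp peak over the main TSS, and peaks do not tell which strand they belong to. Gm7997, a processed pseudogene within Gab1, lay within 3 kb of a peak of 1177 bp in intron 8.

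Hgf (ENSMUSG00000028864.7) spans chr5:16553495-16620152 on the plus strand, 66.7 kb with 19 exons in the main transcript Hgf-204. It had 1 peak, of 973 bp from -0.647 to 0.325 kb, over exon 1 and most of the short intron 1. Of its 6 annotated start sites, 5 lay in this peak and that of Hgf-203, 378 bp after the main TSS, did not. The remaining gene and its 3′ flank held no peak, a bare stretch of 86.3 kb within the window. The nearest other peak was 80.6 kb upstream, and none lay downstream for 1020 kb. The predicted transcripts Gm43489 and Gm42975, which start inside Hgf, had no promoter peak.

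Cxcl12 (ENSMUSG00000061353.11) lies at chr6:117168535-117181367 on the plus strand, 12.8 kb with 4 exons in the main transcript Cxcl12-203, close in length to Ackr3. A peak of 2673 bp from -0.500 to 2.17 kb held all its start sites, exon 1 and 73.4% of intron 1, and a peak of 795 bp lay just before it. The only other peak, of 757 bp from 6.58 to 7.33 kb, lay in intron 3. Peaks covered 23.1% of the gene, against 97.9% of Ackr3, and none of the 20 kb after it. The noncoding gene D030044L04Rik in its 5′ flank had no promoter peak.

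Intronic and flanking peaks more than 3 kb from each start site of the gene itself held most of the covered bases of Met and Gab1. In Cxcl12 the promoter peak of 2673 bp was wider than the only such peak, of 757 bp. For the 5 genes that had one lying inside the window, the centre of the widest such peak is shown. Each is the central 200 bases on the gene's strand in GRCm38.p6 (that of Ackr3 is from the peak that also holds the start of Gm38277), with E-boxes of the form CANNTG, the motif of myogenic factors among many others, in capitals.
Met distal peak centre, chr6:17561573-17561772, plus strand: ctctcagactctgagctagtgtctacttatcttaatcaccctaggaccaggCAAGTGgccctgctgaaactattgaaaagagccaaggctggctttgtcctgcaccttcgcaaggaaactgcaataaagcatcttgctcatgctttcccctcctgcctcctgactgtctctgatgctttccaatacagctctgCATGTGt
Cxcr4 distal peak centre, chr1:128585963-128586162, minus strand: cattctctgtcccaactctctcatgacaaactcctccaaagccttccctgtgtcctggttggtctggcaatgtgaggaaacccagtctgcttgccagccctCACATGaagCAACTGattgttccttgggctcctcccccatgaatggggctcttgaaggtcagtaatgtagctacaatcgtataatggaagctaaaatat
Ackr3 distal peak centre, chr1:90232266-90232465, plus strand: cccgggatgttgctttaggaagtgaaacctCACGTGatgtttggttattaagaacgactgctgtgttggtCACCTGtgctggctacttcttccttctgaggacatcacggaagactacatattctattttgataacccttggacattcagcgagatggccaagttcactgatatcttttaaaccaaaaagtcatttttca
Cxcl12 distal peak centre, chr6:117175431-117175630, plus strand: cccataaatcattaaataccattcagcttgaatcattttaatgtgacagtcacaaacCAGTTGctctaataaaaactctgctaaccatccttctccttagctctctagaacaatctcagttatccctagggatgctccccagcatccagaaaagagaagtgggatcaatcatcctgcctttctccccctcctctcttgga
Gab1 distal peak centre, chr8:80850437-80850636, minus strand: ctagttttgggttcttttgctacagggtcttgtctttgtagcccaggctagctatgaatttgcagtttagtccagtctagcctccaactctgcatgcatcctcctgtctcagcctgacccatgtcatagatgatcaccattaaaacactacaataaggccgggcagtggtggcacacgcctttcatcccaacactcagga

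An E-box occurred in 4 of these 5 centres, 2 each in Met, Cxcr4 and Ackr3 and 1 in Cxcl12, and none was found in the 200 bases of Gab1. Among the centres of all peaks, 66.2% held at least 1, so that the motif is common at this length. The 5 centres held between 0 and 5 CpGs, against a median of 2 over all peak centres.

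The shape of the peaks around the TSS was compared with that of every coding gene by the Jaccard index, the bins of 100 bp covered in both genes divided by those covered in either, over 400 bins from 20 kb before to 20 kb after the main TSS. The most similar genes were Cnppd1 (0.832) and Gm20708 (0.830) for Met, Ahnak (0.761) and Psen2 (0.729) for Cxcr4, Eif4ebp2 (0.822) and Plxdc2 (0.818) for Ackr3, and Cdon (0.841) and Cavin2 (0.817) for Gab1. For Hgf they were Acaa1b and Ankef1 (0.917 each, 12 covered bins against 11), and for Cxcl12 they were Dzip3 (0.809) and Pdhx (0.789). Between members the index was highest for Ackr3 and Gab1 (0.474) and lowest for Hgf and Gab1 (0.0365). These values describe the layout of intervals in 1 merged list and do not compare levels.

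The chemokine receptors other than Cxcr4 and Ackr3 mostly lacked a promoter peak. Of 21, 5 (23.8%) had a promoter peak, against 67.8% of coding genes, and 10 had no peak base in their window, as did 22.5% of coding genes. The widest was at Ccr10, a receptor of skin-homing lymphocytes, with 5917 bp, but this peak also held a start site of the coding gene Cntnap1, so that it cannot be assigned to either. The next was Ccrl2, an atypical receptor, with 3955 bp. Ackr1, Ackr4 and Ccr1 were among those without a promoter peak. The peak at Ccr9 also held a start site of another coding gene, Slc6a20a. The median window of these 21 genes was covered at 0.843%, against 43.6% for Cxcr4 and 50.9% for Ackr3. Ccr10 (44.5%), Cxcr5 (36.8%), Ccr7 (30.8%) and Ackr2 (26.5%) lay above the upper quartile of 20.6% over all coding genes.

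The chemokine ligands other than Cxcl12 were near the values of all coding genes. Of 34, 19 (55.9%) had a promoter peak, against 67.8%, and their median window was covered at 10.3%, against 9.53% for all coding genes and 8.00% for Cxcl12. The widest promoter peaks were at Ccl11, an eosinophil attractant, with 11023 bp, and at Cxcl9, a ligand of Cxcr3, with 8954 bp. Ccl1, Ccl12 and Ccl20 had none. Windows covered at 40% or more were those of Ccl7 (74.6%), Ccl11 (71.8%), Ccl2 (64.3%), Cxcl1 (42.4%) and Cxcl9 (40.8%), which were picked out after their values were seen. The first 3 are neighbours whose windows overlap. Broad coverage was thus also present at ligand genes of the chemokine family.

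Genes that act on Hgf before it reaches Met were varied. Of 8 genes for the activation of Hgf or for the related ligand Mst1 and its receptor Mst1r, 6 had a promoter peak, a share near the 67.8% of coding genes. The widest by far was at Plau, the urokinase that can cleave the Hgf precursor, with 16554 bp and 60.3% of its window covered. Hpn, the protease hepsin, had a promoter peak of 2746 bp, narrower than the median, and a window covered at 48.4%. Hgfac, the Hgf activator, and Spint1, an inhibitor of that protease, had no promoter peak. Hgfac had 6.75% of its window covered, and Spint1 had none.

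The signalling genes after the receptors nearly all had promoter peaks, against 67.8% of coding genes. All 14 adaptors and effectors of Met had one, with a median width of 4237 bp, against 3430 bp over coding genes that have one. The widest were at Plcg1, a phospholipase, with 17834 bp and at Pik3ca, a catalytic subunit of PI3K, with 15108 bp. Their median window was covered at 17.3%, above the 9.53% of all coding genes and below the 56.9% of Gab1. Within this list Pik3r1 lay above Gab1, with 61.1% of its window covered, and Plcg1 was close to it with 54.1%. The paralogues of Gab1 were covered far less than Gab1, Gab2 at 3.62% and Gab3 at 3.98% of the window. Of 18 transducers and regulators of Cxcr4, 17 had a promoter peak, with a median width of 5539 bp, also above 3430 bp. The widest were at Grk2, a kinase that desensitises the receptor, with 10700 bp and at Pxn, the focal adhesion protein paxillin, with 9821 bp. Cd74, a receptor of the cytokine Mif that pairs with Cxcr4, had no promoter peak.

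**Figure D4:**
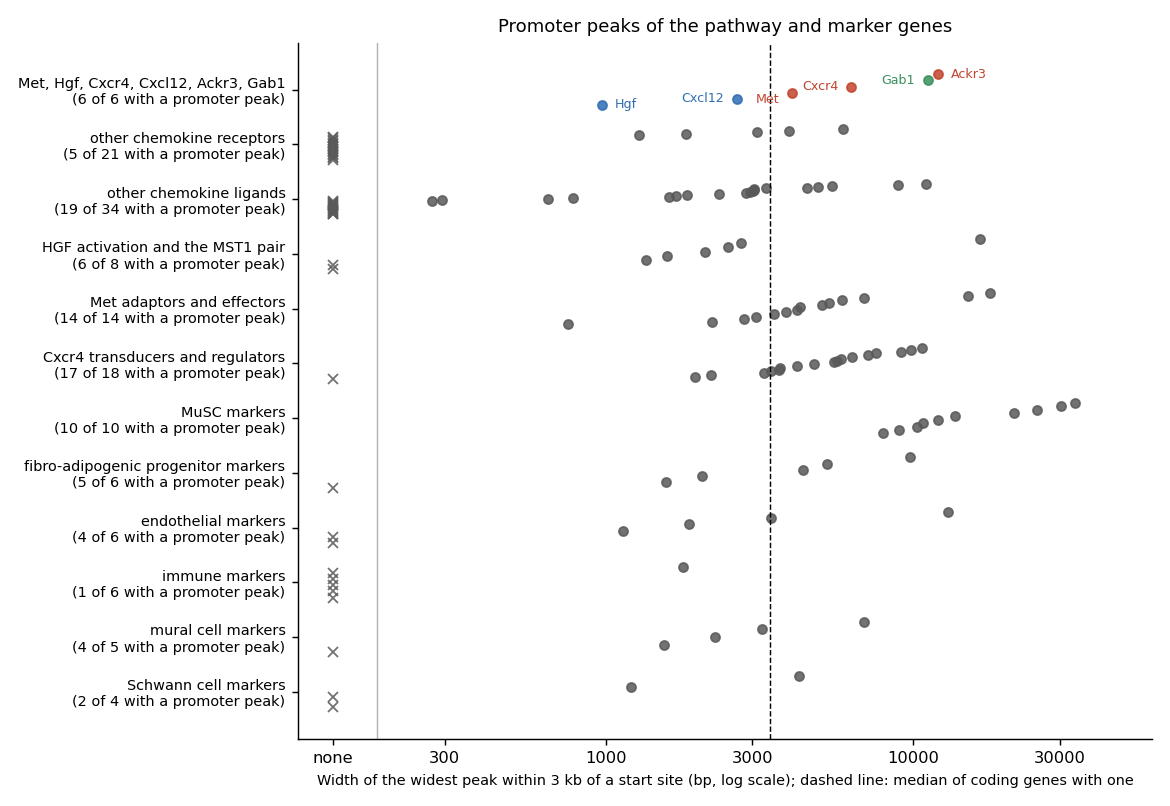
Width of the widest peak within 3 kb of a start site (bp, log scale) for each gene of the pathway and marker lists, with crosses for genes without one and a dashed line at the median of 3430 bp over coding genes that have one. Chemokine receptors are mostly crosses (5 of 21 with a peak), Met and Cxcr4 signalling genes are almost all points, and the 10 MuSC markers lie between 7972 and 33642 bp.

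Marker genes were read in the same way to see which cell types the list represents. All 10 MuSC markers had promoter peaks, from 7972 bp at Cdh15 to 33642 bp at Megf10. Their median window was covered at 45.7%, near the values of Met and Cxcr4. In promoter width Met (4033 bp) and Cxcr4 (6296 bp) lay below each of the 10 markers. Among these, the peak of Myf5 (30239 bp) also held a start site of the coding gene Myf6 and cannot be assigned to either. Of 6 immune markers, 1 had a promoter peak (Csf1r, 1786 bp), and Ptprc, which encodes the depleted CD45, had no peak base in its window. Of 6 endothelial markers, 4 (66.7%) had one, near the 67.8% of coding genes. The widest, 12975 bp at Tek, an angiopoietin receptor, was wider than any promoter peak of the 6 genes. That of Pecam1, which encodes the depleted CD31, was 3440 bp wide, and Cdh5 and Emcn had no peak base in the window. Among the fibro-adipogenic progenitors, which are known to make Hgf and Cxcl12, 5 of 6 markers had a promoter peak, between 1576 bp at Col1a1 and 9775 bp at Dpt. Ly6a, which encodes the depleted Sca1, had none. The median window of these markers was covered at 24.5%, against 9.53% for all coding genes, and that of Dpt at 60.1%, above each of the 6 genes described here. Of 5 mural markers 4 had a promoter peak, and of 4 Schwann cell markers 2. The widest mural one, 6912 bp at Cspg4, also held a start site of the coding gene Odf3l1. The window of Cspg4 was covered at 44.3%. The part of other cell types in the peaks at Hgf and Cxcl12 was not tested.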

How the data were processed

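MuSC ChIP-seq libraries for H3K56ac and input DNA were sequenced by the authors on an Ion Torrent Proton. Per the methods and labels, reads were trimmed (Trim Galore), aligned with bowtie to mm10 keeping single alignments, and freed of duplicates (Picard). Peaks were called with MACS2, filtered against the ENCODE blacklist and merged with GenomicRanges. Which libraries entered the merge is not given in the sources used here. The deposited list holds coordinates and a score of 0 in every row, so the score was not used. No column holds authors' comparisons, and 0 columns hold values per sample. Depth is not part of the list, although the reporting summary of the paper gives read counts for each library, which were not used here. A merged interval is as wide as the union of the intervals behind it, so widths depend on how many calls were merged and on the caller's settings.

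Peaks were intersected (minimum 1 bp) with GENCODE vM21 genes plus 20 kb, a promoter peak being one within 3 kb of any TSS. The main transcript was the protein-coding one with the best APPRIS tag, then the longest. Ranks give the share of coding genes with a lower value. Sequences came from RefSeq on GRCm38.p6, the same assembly as mm10, for all 6 genes. Where RefSeq gave several starts, the one nearest the main TSS was printed, and all 8 promoter windows of these genes were identical to the genome at their coordinates. Interval functions were tested on simulated data. Python 3.11.15, numpy 2.4.6 and matplotlib 3.10.9 were used. The genes and lists were chosen with earlier results of these data known. In each pathway list the 2 genes with the widest promoter peak and the first 3 in the alphabet without one were named. For each member the 2 coding genes most like it in coverage were named, with genes that start in a member window. Gab2, Gab3, Pik3r1, Ccr7, Ccr9, Cxcr5, Ackr2 and the chemokine ligands covered at 40% or more were picked after their values were seen. Alternatives were other flanks, joined peaks, peaks of at least 500 bp, peak midpoints, other promoter definitions and genes of like length.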

Additional observations from a re-analysis of the deposited data

How the results depend on the processing

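The 73 peaks became 49 within the genes alone, 56 with a flank of 5 kb, 125 with a flank of 50 kb, 29 after joining peaks less than 1 kb apart, 71 with peaks of at least 500 bp only and 72 by peak midpoints. In the same order, without midpoints, the covered share of all windows of 35.7% became 47.8%, 44.5%, 31.3%, 37.7% and 35.6%, and the difference of 40.5 percentage points between receptors and ligands became 70.9, 56.9, 42.1, 43.3 and 40.4. The 3 receptors and Gab1 each lay above both ligands under every one of these settings. All 6 genes kept a promoter peak under each of the 5 other definitions. The difference between receptors and ligands kept its sign. The order of Cxcr4 and Gab1 changed with the flank. Cxcr4 lay above Gab1 with a flank of 5 kb (94.2% against 65.0%) and with one of 50 kb (52.9% against 50.0%). The ranks of single genes moved most for Hgf, from above 24.5% of all coding genes to above 10.7% of those within 20% of its length, and for Cxcl12, from 45.7% to 35.9%. With joined peaks the rank of the Ackr3 promoter peak fell from 97.9% to 91.3%, below that of Cxcr4, which rose from 86.1% to 94.5%, and Met rose from 62.0% to 70.1%. No paired analysis was possible because no value per replicate can be read from merged intervals. Depth limits the absence of peaks at Hgf, since a weak enrichment below the caller's threshold leaves no interval.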

Other observations

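The intervals between the 6 genes and their nearest protein-coding neighbours varied in coverage, also between the 2 sides of a gene. Each begins at the edge of the gene, so it includes the 20 kb flank already counted in the window. Promoter peaks of the gene or its neighbour that reach into it are counted too, so these values are not independent of the window values. Intervals beside the receptors and Gab1 were covered at 6.12% to 52.9%, and those beside the ligands at 0% to 6.32%. These ranges overlapped only slightly, where the interval from Cxcr4 to Thsd7b (6.12%) lay below that from Cxcl12 to Zfp637 (6.32%). Downstream of Ackr3, 93 peaks covered 52.9% of the 386 kb up to Cops8, a subunit of the COP9 signalosome, whereas 4 peaks covered 12.7% of the 50.6 kb upstream up to Iqca. Downstream of Cxcr4, 41 peaks covered 49.1% of the 171 kb up to Dars, an aminoacyl-tRNA synthetase, and 34 peaks covered 6.12% of the 681 kb upstream up to Thsd7b. Around Met, 11 peaks covered 17.2% of the 122 kb up to Cav1 and 8 peaks covered 20.2% of the 62.3 kb up to Capza2. Around Gab1, 21 peaks covered 25.3% of the 100.2 kb up to Usp38 and 1 peak covered 11.1% of the 24.9 kb up to Smarca5.

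Of the ligand genes, Hgf lay beside an interval without peaks. No peak lay in the 172 kb between Hgf and Gm28710 downstream. Upstream, 4 peaks, among them the promoter peak of Hgf, covered 2.62% of the 179 kb up to Cacna2d1. On the upstream side of Cxcl12, 7 peaks, among them its 2 promoter peaks, covered 1.38% of the 452 kb up to Tmem72. On the downstream side 29 peaks covered 6.32% of the 660 kb up to Zfp637. That share was slightly more than between Cxcr4 and Thsd7b and near the 6.95% of the assembled sequence. The list does not say which gene a distal peak acts on, and noncoding genes within these intervals were not set apart. These neighbours were looked at after the peaks in the windows had been seen.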
